A study of Arabidopsis thaliana with 6 samples.

Results

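The transcripts described here come from the plastid genome of Arabidopsis thaliana and encode subunits of the photosynthetic complexes, of the NDH complex and of Rubisco. They were chosen as probe sets annotated to 1 plastid gene whose symbol starts with psa, psb, pet, atp or ndh, or is rbcL. This rule found 43 of 22810 probe sets on the Affymetrix ATH1 array, each for a different gene, out of 69 probe sets that name 1 plastid gene. By complex they were 5 of photosystem I, 15 of photosystem II, 6 of the cytochrome b6f complex, 6 of the ATP synthase, 10 of NDH and 1 of Rubisco. Of the 44 plastid gene symbols with these names, ndhB was left out because it lies in both copies of the inverted repeat and its probe set names 2 loci.

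The study compared 3 arrays of wild-type Col-0 with 3 arrays of a double mutant of the APS kinase genes APK1 and APK2, made by crossing the lines salk_053427 and salk_093072. APS kinase makes PAPS, the activated sulfate used by sulfotransferases. Each array read RNA from a pool of 10 whole rosettes, harvested before bolting at an age of 35 days and 4 h into the light period. Seeds were given 3 days of cold, and plants grew at 22 °C, in 60% humidity and a cycle of 10 h light and 14 h dark. The groups shared these conditions, the double mutant was 1 combination of alleles, and the comparison asked which transcripts differ when both kinases are disrupted.

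In the light reactions, photosystem II takes electrons from water and passes them through plastoquinone to the cytochrome b6f complex, from which plastocyanin carries them to photosystem I. The resulting proton gradient drives the plastid ATP synthase, while the NDH complex returns electrons from ferredoxin to plastoquinone and Rubisco fixes carbon dioxide. Each of these assemblies mixes plastid-encoded and nuclear-encoded subunits, and many plastid genes are transcribed together as polycistronic RNAs that are later cut and spliced. Most plastid mRNAs carry no stable poly(A) tail, and in plastids such tails mark RNA for decay. Labelling with the kit used started at the 3′ ends of RNAs, so a plastid signal here is a relative reading of 1 probe set and no measure of transcript copies. Signals of different probe sets are not compared as transcript amounts.

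The members were lower in the double mutant as a rule, by small factors, and none was called higher. Of 42 tested members, limma called 16 lower at an adjusted p under 0.05 (38.1%), where it called 5.55% of all 13848 tested probe sets lower, and 0 higher, where it called 5.79% of all higher (11.3% in either direction). The 16 calls ranged from 1.21-fold lower for psbZ to 1.86-fold lower for psbN. The estimated change was negative for 39 of 42 members, against 7485 of 13848 probe sets in all. The median log2 change was −0.26 over the members and −0.02 over all tested probe sets. All 3 mutant arrays lay below all 3 wild-type arrays for 24 members (57.1%), against 15.7% of all tested probe sets, and above them for 0 members, against 13.0%. At an unadjusted p under 0.05, 24 members were lower and 0 were higher, against 3286 of 13848 tested probe sets in either direction. At an adjusted p under 0.01, 4 members were called lower, against 2.49% of all tested probe sets.

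The number of calls depended on single arrays and on the variance prior, while most estimates kept their direction. Leaving out wild-type replicate 1 took the 16 calls to 4, while leaving out wild-type replicates 2 or 3 gave 7 or 10. Among the mutant arrays, 19 calls were made with replicate 1 left out, 5 with replicate 2 and 7 with replicate 3. When single arrays were left out, between 34 and 41 of the 42 members still had a negative estimate. No called member changed sign, and 2 of the 16, ndhA and ndhG, moved by over 1.5 times. Of the 26 members not called, 21 moved by over 1.5 times and 7 of these changed sign (atpB, atpE, psaJ, psbA, psbI, psbM and rbcL). With wild-type replicate 1 and mutant replicate 2 both left out, 3 members were called and the median over the members was −0.14. When the prior on the variance had no trend with signal, 2 members were called, atpH and psbN, and these were also the 2 members called in all 15 settings, the values as deposited included.

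**Figure D1:**
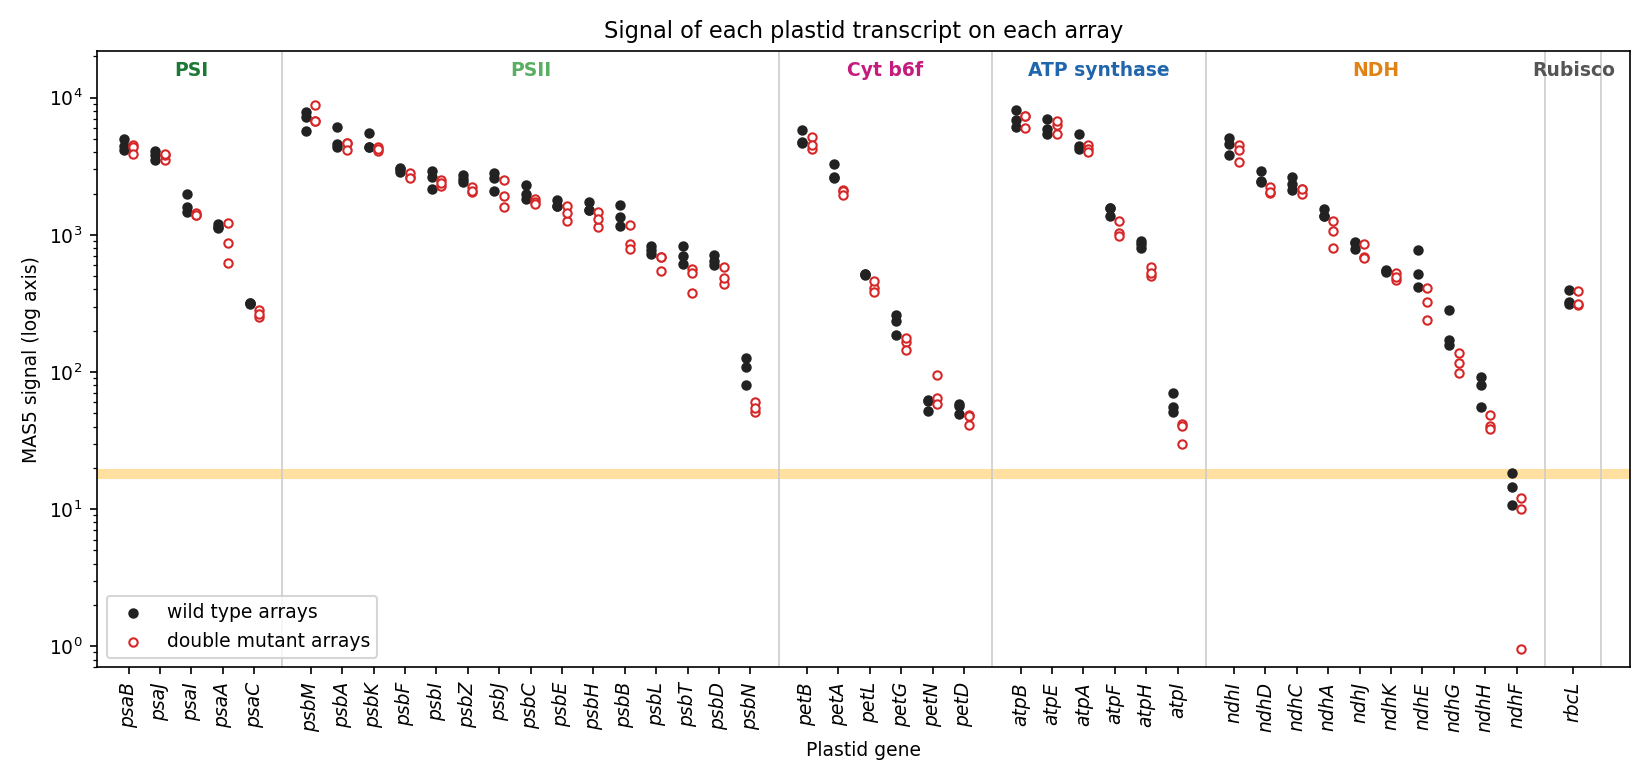
MAS5 signal (log axis) of the 43 plastid transcripts by complex, ordered by mean signal. Black points are the 3 wild-type arrays, open red points the 3 double mutant arrays, and the yellow band spans the arrays' 40th percentiles of signal, 16.9 to 19.4. Mutant points sit at or below wild-type points for most genes, and ndhF is the 1 transcript at or under the band.

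All members apart from ndhF exceeded the 40th percentile on all 6 arrays, the level used as a filter on dim probe sets. The signal of ndhF, which encodes a proton-pumping membrane subunit of NDH, was 10.7, 14.5 and 18.4 in the wild type and 0.959, 9.94 and 12.0 in the mutant. Only wild-type replicate 3 reached its array's limit, and ndhF was not tested.

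Many members moved together from array to array, also within a genotype, but by unequal amounts. Each array's shift was taken as the median, over the 42 members, of the log2 signal minus the gene's mean over 6 arrays. In the wild type this shift was 0.28, 0.08 and 0.04 for replicates 1, 2 and 3, and in the mutant it was −0.04, −0.20 and −0.16. On mutant replicate 2 the quartiles over the members were −0.40 and −0.03, and on wild-type replicate 3 they were −0.07 and 0.13. The median shifts of the groups did not overlap, but those of wild-type replicate 3 and mutant replicate 1 lay close together. Wild-type replicate 1 held the highest signal of 33 members, and mutant replicates 2 and 3 held the lowest of 21 and 14. As a share of the summed signal of all non-control probe sets, the members made up 2.91%, 2.62% and 2.46% in the wild type and 2.48%, 2.38% and 2.29% in the mutant, so that by this measure the genotypes overlapped. In RNA from whole rosettes, fewer plastid-rich cells, fewer plastids per cell and less RNA per plastid cannot be told apart. Nor can they be told from a difference between arrays in the labelling of plastid RNA, which started at 3′ ends.

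**Figure D2:**
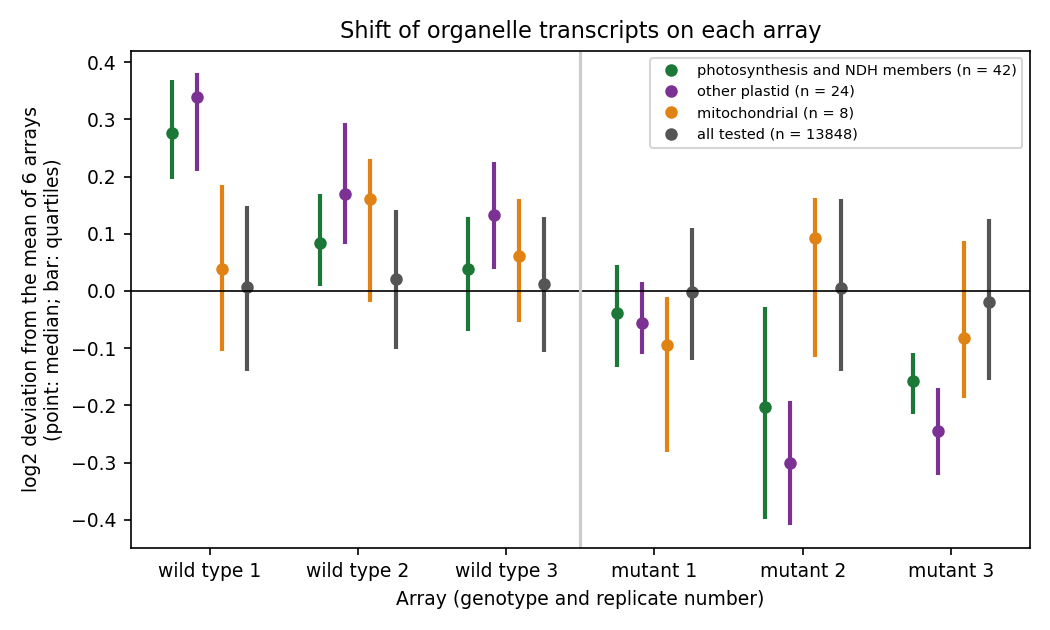
Shift of each array, as the log2 deviation from each gene's mean over 6 arrays, for the photosynthesis and NDH members, other plastid genes, mitochondrial genes and all tested probe sets. Points are medians and bars quartiles. The members and the other plastid genes are above 0 on the 3 wild-type arrays and below 0 on the 3 mutant arrays, with wild-type replicate 1 highest at 0.28 for the members.

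The other plastid-encoded transcripts, for ribosomal proteins, RNA polymerase and assembly factors among others, shifted the same way. Of 24 tested, 14 were called lower (58.3%, against 5.55% of all tested probe sets) and 0 higher (against 5.79%). Their median log2 change was −0.44. Their array shifts were 0.34, 0.17 and 0.13 in the wild type and −0.06, −0.30 and −0.25 in the mutant. For mitochondrial genes, whose mRNAs also lack stable poly(A) tails, 8 of 23 probe sets were bright enough to be tested. They were dim, with a median signal of 33.0 against 1356 for the members. Their log2 changes were less precise, with a median standard error of 0.21 against 0.10. Of the 8, 1 was called lower (12.5%) and 0 higher, the median log2 change was −0.04, and 4 of 8 estimates were negative.

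Control probe sets were read beside these shifts, and their part in them was not tested. The ratio of the 3′ to the 5′ signal of GAPDH was 2.41, 1.99 and 2.04 in the wild type and 1.87, 2.06 and 2.02 in the mutant, with the highest ratio on wild-type replicate 1. A second GAPDH pair overlapped between the genotypes, with lowest ratios of 0.947 and 0.955. One actin pair gave 3.17 to 3.52 in the wild type and 3.57 to 4.02 in the mutant, without overlap and higher in the mutant, while the other gave 23.5 to 27.0 and 23.4 to 34.4, which overlapped. One ubiquitin pair gave 1.43 to 1.56 in the wild type and 1.36 to 1.39 in the mutant, without overlap and lower in the mutant, and the other gave 2.89 to 3.15 and 2.86 to 2.97, which overlapped. Of the 6 pairs, the 2 without overlap thus differed in opposite directions. The 25S rRNA probe set had 617, 458 and 559 in the wild type and 698, 692 and 181 in the mutant, so it did not follow the members' shift. Some control signals were higher in the mutant without overlap, as were 13.0% of all tested probe sets. For the first GAPDH, the means were 1286 against 1508 (middle) and 697 against 769 (5′). The second GAPDH pair had 2064 against 2383 (3′) and 1997 against 2385 (5′). The 5′ probe set of the ubiquitin pair without overlap had 2695 against 3084. The other Arabidopsis controls overlapped.

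**Figure D3:**
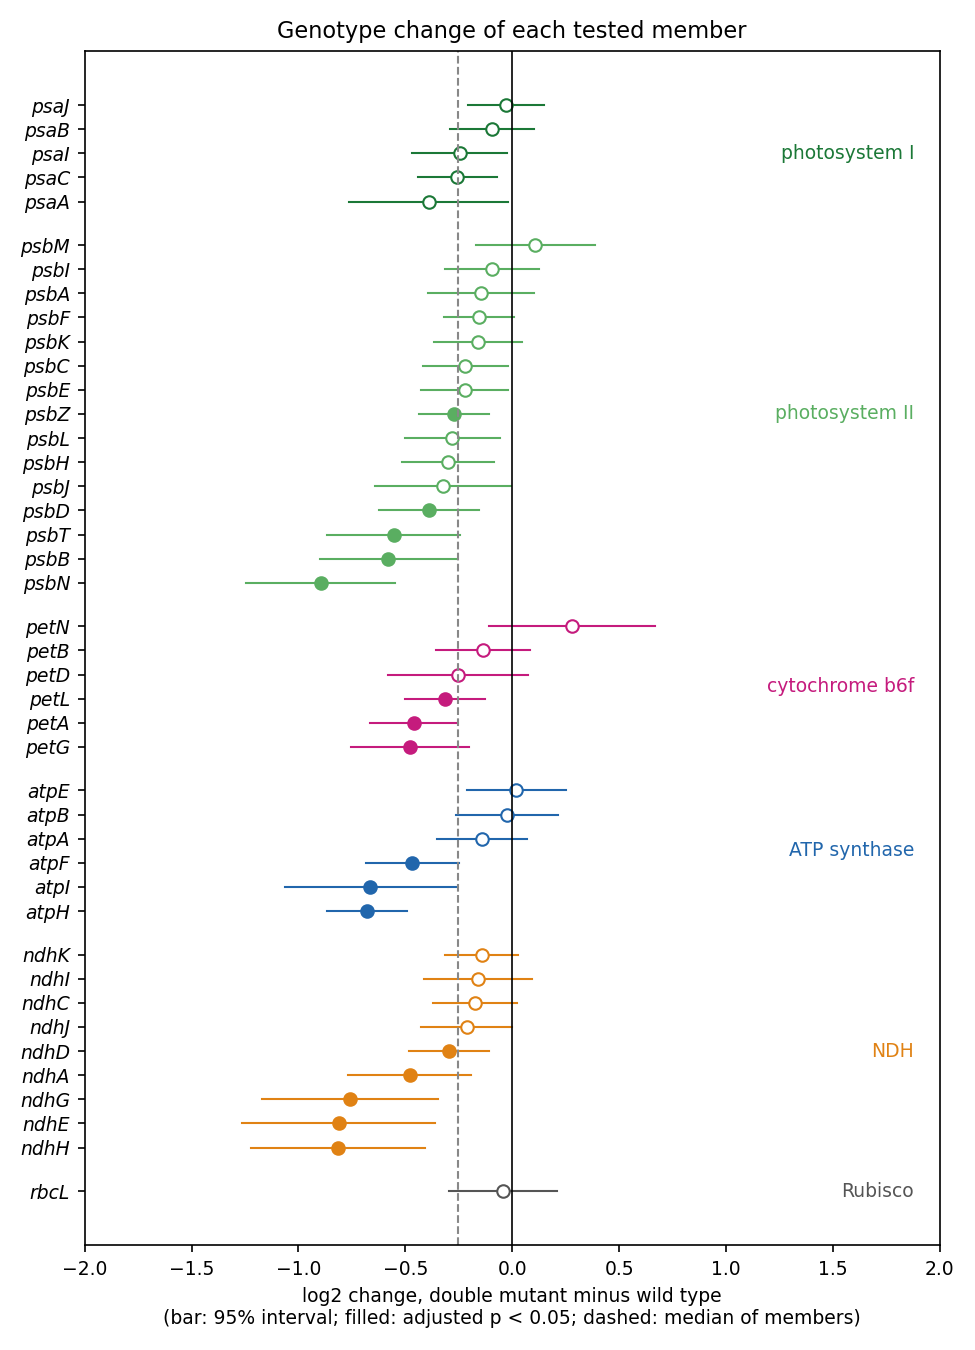
Fitted log2 change, double mutant minus wild type, of the 42 tested members by complex, with 95% intervals. Filled points passed an adjusted p of 0.05 and the dashed line is the members' median, −0.26. Every filled point is on the negative side, with none in photosystem I.

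Photosystem II had the widest span of changes, and 5 of its 15 members were called lower (33.3%, against 5.55% of all tested probe sets). Its median log2 change was −0.27 and 14 of 15 estimates were negative. The clearest fall was that of psbN, whose small membrane protein is needed to assemble photosystem II although it is no stable part of it, and which is transcribed from the opposite strand within the psbB gene cluster. Its signal was 126, 80.7 and 108 in the wild type and 60.8, 51.1 and 54.9 in the mutant. The groups did not overlap, and psbN fell 1.86-fold (95% interval 1.46 to 2.37, n = 3 per genotype, limma adjusted p = 0.00268).

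The psbB gene, for the inner antenna protein CP47, had 1662, 1356 and 1162 in the wild type and 1175, 851 and 783 in the mutant. Mutant replicate 1 lay just above wild-type replicate 3, so the groups overlapped, and psbB fell by 0.58 on the log2 scale (95% interval of the change −0.90 to −0.26, limma adjusted p = 0.0222). Its neighbour psbT, for a small subunit at the dimer interface, had 836, 697 and 613 in the wild type and 563, 377 and 530 in the mutant. Every mutant value lay below every wild-type value, a 1.47-fold fall (adjusted p = 0.0244). For psbD, which encodes the reaction centre protein D2, the signals were 716, 642 and 605 against 587, 438 and 482. The groups did not overlap and psbD fell 1.31-fold (adjusted p = 0.0350). The signals of psbZ, a small peripheral subunit, were 2710, 2438 and 2564 against 2225, 2057 and 2105, also without overlap. This was a 1.21-fold fall (adjusted p = 0.0362).

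Apart from psbN, each of these calls ended when certain arrays were left out. The adjusted p of psbB was 0.0987 or 0.0578 when wild-type replicate 1 or 2 was left out, and 0.0820 or 0.0958 for mutant replicate 2 or 3. That of psbT was 0.109 or 0.0617 when wild-type replicate 1 or 2 was left out and 0.0776 for mutant replicate 2. For psbD and psbZ the call ended without any array other than mutant replicate 1, with adjusted p-values of 0.0527 to 0.133 and of 0.0667 to 0.119.

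The reaction centre gene psbA, for the D1 protein that is replaced as it is damaged by light, was not among the calls. Its signal was 6115, 4589 and 4374 in the wild type and 4691, 4667 and 4145 in the mutant. Wild-type replicate 1 stood apart and the other 5 arrays overlapped. The log2 change was −0.15 (95% interval −0.39 to 0.10, limma adjusted p = 0.500) and was 0.0044 without wild-type replicate 1. The brightest member was psbM, for a small subunit at the dimer interface, which ranked 10 among all non-control probe sets by mean signal. It had 7186, 7876 and 5686 in the wild type and 6726, 8877 and 6756 in the mutant, with a log2 change of 0.11 (95% interval −0.17 to 0.39). Its highest value was on mutant replicate 2, the array where most other members were low.

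The remaining photosystem II genes, for the CP43 antenna (psbC), cytochrome b559 (psbE and psbF) and small subunits, had log2 changes from −0.33 for psbJ to −0.09 for psbI and were not called. Among them psbC, psbF, psbH, psbK and psbL had no overlap between the genotypes. Without mutant replicate 1, psbH and psbJ passed the threshold (adjusted p = 0.0220 and 0.0233), with log2 changes of −0.39 and −0.50. Without mutant replicate 2 these were −0.20 and −0.17 (adjusted p = 0.252 and 0.536).

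In photosystem I, 0 of 5 members passed the limma test as lower and 0 as higher, against 5.55% and 5.79% of all tested probe sets. At an unadjusted p under 0.05, 3 of 5 passed, against 3286 of 13848 probe sets in either direction. The median log2 change was −0.25 and all 5 estimates were negative, but leaving out wild-type replicate 1 or mutant replicate 2 took the median to −0.12 or −0.15. The large reaction centre subunits are encoded by psaA and psaB. The signal of psaA was 1195, 1125 and 1132 in the wild type and 1229, 628 and 875 in the mutant. Mutant replicate 1 lay above all wild-type arrays while the other mutant arrays lay well below them, giving a log2 change of −0.39 (95% interval −0.76 to −0.02, adjusted p = 0.186). The estimate of psaA rested on these arrays, at −0.63 and past the threshold without mutant replicate 1 (adjusted p = 0.00455) and at −0.15 without mutant replicate 2 (adjusted p = 0.539). For psaB the signals were 5003, 4454 and 4174 against 4530, 4356 and 3882, which overlapped, with a log2 change of −0.09 (95% interval −0.29 to 0.10).

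The psaC gene encodes the subunit that carries the terminal iron-sulfur clusters. It had 320, 320 and 315 in the wild type and 283, 251 and 266 in the mutant. The wild-type arrays were nearly equal and all mutant arrays lay below them, but the log2 change of −0.26 had an adjusted p of 0.0746. The small subunit gene psaI also had no overlap (log2 change −0.25, adjusted p = 0.161), and psaJ, for another small subunit, had a log2 change of −0.03 (95% interval −0.21 to 0.15).

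Of 6 cytochrome b6f members, 3 were called lower, against 5.55% of all tested probe sets, and 0 higher, against 5.79%. The estimate was negative for 5 of 6, with a median log2 change of −0.28. All mutant arrays lay below all wild-type arrays for 4 of 6, against 15.7% of all tested probe sets. The petA gene encodes cytochrome f, the subunit that passes electrons to plastocyanin. Its signal was 3279, 2612 and 2635 in the wild type and 2108, 2093 and 1963 in the mutant. The groups were well apart and petA fell by 0.46 on the log2 scale (95% interval of the change −0.66 to −0.26, limma adjusted p = 0.00600), a call that was kept when any single array was left out.

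The genes petL and petG, for small subunits, lie side by side and both fell. The signal of petL was 508, 520 and 522 in the wild type and 409, 383 and 457 in the mutant, a 1.24-fold fall (adjusted p = 0.0321). That of petG was 235, 260 and 187 against 166, 144 and 177, a 1.39-fold fall (adjusted p = 0.0281). In both genes all mutant arrays were lower than all wild-type arrays. The petL call was kept without mutant replicate 3 and ended without any other single array (adjusted p = 0.0646 to 0.111). That of petG ended without wild-type replicate 1 (0.0957), wild-type replicate 2 (0.129) or mutant replicate 2 (0.0956).

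The cytochrome b6 gene petB was the brightest of this complex and was not called. Its signal was 5835, 4752 and 4677 in the wild type and 5136, 4211 and 4508 in the mutant, which overlapped, with a log2 change of −0.14 (95% interval −0.36 to 0.08). The dimmest was petD, for subunit IV, with 58.0, 56.6 and 49.4 against 40.9, 48.6 and 48.0. The ranges were adjacent without overlap, and the adjusted p was 0.347. The small subunit gene petN had the highest estimate of all members, a log2 change of 0.28 (95% interval −0.11 to 0.67), with 94.9 on mutant replicate 2 and 51.8 to 64.3 on the other 5 arrays. When mutant replicate 2 was left out the estimate was 0.07.

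Of 6 ATP synthase members, 3 were called lower, against 5.55% of all tested probe sets, and 0 higher, against 5.79%. The median log2 change of all 6 was −0.30. A filter at the 60th percentile, which removes atpI, gave −0.14. The other 3 had estimates between −0.14 and 0.02. The proton channel of the membrane part is formed by the products of atpH, the ring subunit, and atpI, while atpF encodes a stalk subunit. The signal of atpH was 904, 858 and 796 in the wild type and 578, 497 and 524 in the mutant. The gap between the groups was larger than the range within either, and atpH fell 1.60-fold (95% interval 1.41 to 1.82, limma adjusted p = 1.83e-04). It had the smallest adjusted p of the members, and its adjusted p reached at most 0.0125 over the 15 settings.

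For atpF the signals were 1560, 1570 and 1382 in the wild type and 1270, 1029 and 979 in the mutant. The groups did not overlap and atpF fell 1.38-fold (95% interval 1.19 to 1.61, adjusted p = 0.00854), a call kept without any single array. The atpI probe set was dim, with 70.2, 56.0 and 50.7 against 41.7, 29.8 and 40.2. It fell by 0.66 on the log2 scale (95% interval of the change −1.06 to −0.26, adjusted p = 0.0347), a call that ended without wild-type replicate 1 (0.150), wild-type replicate 2 (0.0817), mutant replicate 2 (0.0986) or mutant replicate 3 (0.0576).

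The catalytic head is formed by the products of atpA and atpB and driven by a rotor that includes the atpE product. The signal of atpB was 8101, 6898 and 6131 in the wild type and 7333, 7322 and 6063 in the mutant, with a log2 change of −0.02 (95% interval −0.26 to 0.21). Here the genotypes overlapped widely. The atpE gene had a log2 change of 0.02 (95% interval −0.21 to 0.25) and atpA of −0.14 (95% interval −0.35 to 0.07). The annotated genes of atpB and atpE overlap, as do those of psbD and psbC, and RNAs that span both genes of a pair can be read by either probe set.

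Of 9 tested NDH members, 5 were called lower (55.6%, against 5.55% of all tested probe sets). All 9 estimates were negative, with a median log2 change of −0.30. The plastid NDH complex resembles respiratory complex I, and ndhA, ndhD, ndhE and ndhG encode parts of its membrane arm, while ndhH encodes a subunit of the peripheral arm. The signal of ndhH was 92.3, 55.2 and 80.2 in the wild type and 48.2, 40.6 and 38.3 in the mutant. The groups did not overlap and ndhH fell 1.76-fold (95% interval 1.33 to 2.34, limma adjusted p = 0.0131). The spread in the wild type was wide, and the call ended without wild-type replicate 1 (0.0695), wild-type replicate 3 (0.0656) or mutant replicate 3 (0.0533).

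For ndhE the signals were 781, 517 and 417 in the wild type and 408, 237 and 322 in the mutant, a 1.76-fold fall (95% interval 1.28 to 2.40, adjusted p = 0.0233). Wild-type replicate 3 and mutant replicate 1 almost met. The signals of ndhG were 281, 170 and 156 against 136, 115 and 98.0, without overlap, a 1.69-fold fall (adjusted p = 0.0204). Both calls ended without wild-type replicate 1 (0.0927 for ndhE and 0.0589 for ndhG), mutant replicate 2 (0.0926 and 0.0541) or mutant replicate 3 (0.0591 and 0.0886), and the log2 change of ndhG went from −0.76 to −0.50 when wild-type replicate 1 was left out.

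The signal of ndhA was 1555, 1378 and 1373 in the wild type and 1266, 796 and 1075 in the mutant. All mutant arrays were lower than all wild-type arrays, with a log2 change of −0.48 (adjusted p = 0.0347). The signal of ndhD was 2904, 2458 and 2419 against 2230, 2027 and 2064. It was also without overlap, a 1.23-fold fall (adjusted p = 0.0450) and the call nearest to the threshold. Each of these calls ended without any array other than mutant replicate 1, with adjusted p-values of 0.0648 to 0.127 for ndhA and 0.0598 to 0.142 for ndhD. The log2 change of ndhA went to −0.30 when mutant replicate 2 was left out.

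The other NDH genes tested, ndhC, ndhI, ndhJ and ndhK, encode a membrane subunit and subunits of the peripheral arm. The brightest of them was ndhI, for an iron-sulfur subunit, with 5046, 4571 and 3837 in the wild type and 4505, 4147 and 3397 in the mutant. The groups overlapped, with a log2 change of −0.16 (95% interval −0.41 to 0.09). The other 3 had log2 changes of −0.17, −0.21 and −0.14, and ndhJ passed the threshold without mutant replicate 1 (adjusted p = 0.0384).

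The large subunit of Rubisco is encoded by rbcL. Its signal was 399, 313 and 324 in the wild type and 307, 389 and 311 in the mutant. The genotypes overlapped fully, with a log2 change of −0.04 (95% interval −0.30 to 0.21, adjusted p = 0.875).

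Changes of the members varied with the brightness of their probe sets. The 42 members were split into 3 classes of 14 by their mean log2 signal over all 6 arrays. The dim class, with mean signals from 46.4 to 585, had 9 calls and a median log2 change of −0.43, where 6.5% of all tested probe sets in that signal range were called lower and their median was −0.03. The middle class, from 673 to 2333, had 5 calls and a median of −0.30, where 11.2% were called lower and the median was −0.05. The bright class, from 2338 to 7116, had 2 calls, petA and psbZ, and a median of −0.14, where 6.21% of 177 probe sets were called lower and the median was −0.05. Across the 42 members the log2 change and the mean log2 signal had a Pearson correlation of 0.52 and a Spearman correlation of 0.61, a description over genes that share arrays and transcripts.

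This order did not hold for each gene. In the dim class, rbcL, ndhK, petD and psaC were not called, and petN, also not called, had a positive estimate. The highest signals of any non-control probe set were 7995 to 10419 per array, so psbM, atpB and atpE lay in the upper part of the arrays' range. Other plastid transcripts had medians of −0.55, −0.38 and −0.16 in the dim, middle and bright ranges, over 9, 10 and 4 probe sets, and rps2 lay between the dim and middle ranges. The classes also differed in how the arrays behaved, since mutant replicate 2 had a shift of −0.38 in the dim class, −0.33 in the middle class and −0.01 in the bright class.

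**Figure D4:**
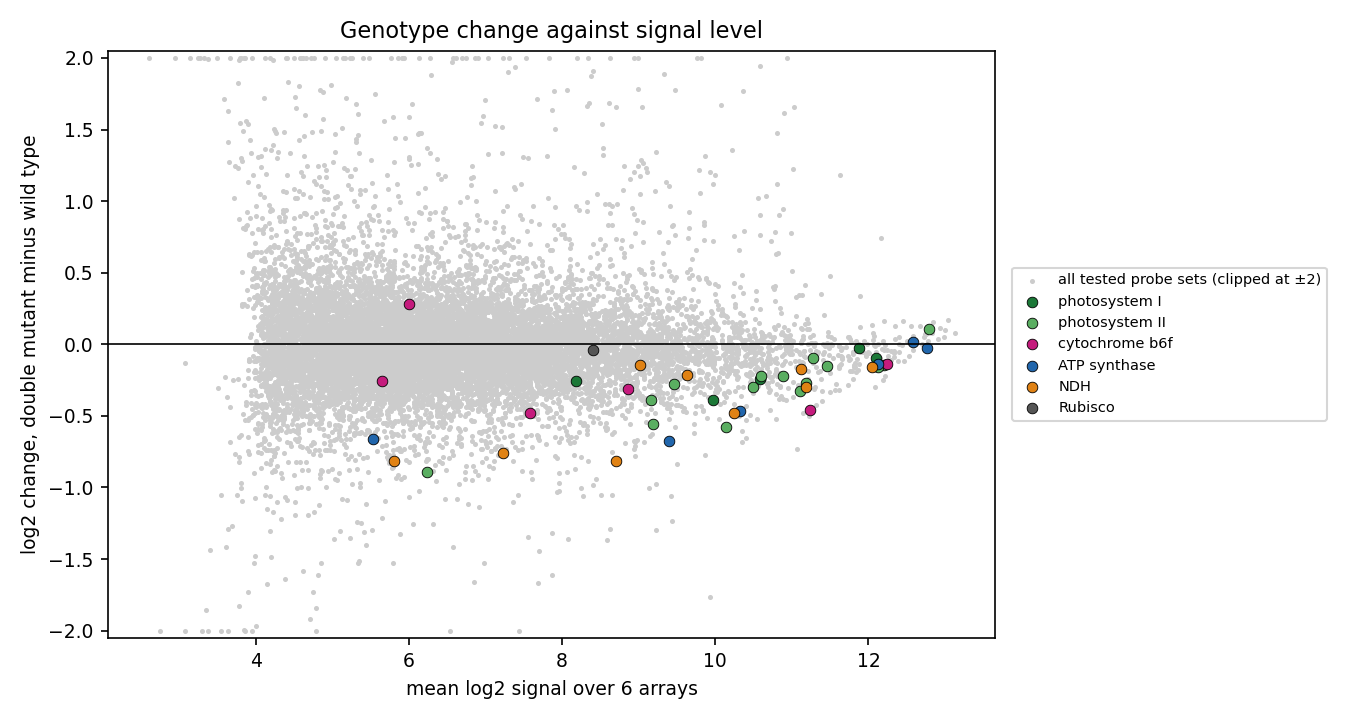
Fitted log2 change, double mutant minus wild type, against the mean log2 signal over 6 arrays, with the members coloured by complex and all 13848 tested probe sets in grey (clipped at 2 in both directions). The brightest members lie nearer to 0 on median than the dimmest, petA being an exception, with medians of −0.14 for the bright class and −0.43 for the dim class.

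Genes of 1 transcription unit did not always share a change. The units used here are textbook ones, and 33 of the 42 members were placed in 10 units of at least 2 members. The unit of psaI and petA, with log2 changes of −0.25 and −0.46, was not among these 10. In the atpI unit, atpI, atpH and atpF had log2 changes of −0.66, −0.68 and −0.47 and the last gene, atpA, −0.14. In the psbB unit, psbB and psbT had −0.58 and −0.55, followed by psbH with −0.30, petB with −0.14 and petD with −0.25. The ndhH unit began with ndhH at −0.82 and ndhA at −0.48 and went on with ndhI at −0.16, ndhG at −0.76, ndhE at −0.81, psaC at −0.26 and ndhD at −0.30.

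Other units were more even. The 4 genes of the psbE unit lay between −0.33 and −0.15, the 3 of the ndhC unit between −0.21 and −0.14, and atpB and atpE at −0.02 and 0.02. In the atpI and ndhH units the genes with the smallest changes, atpA and ndhI, were also those with the brightest probe sets. Because the genes of a unit share RNA molecules, their changes are not independent of each other, and differences within a unit were not tested.

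**Figure D5:**
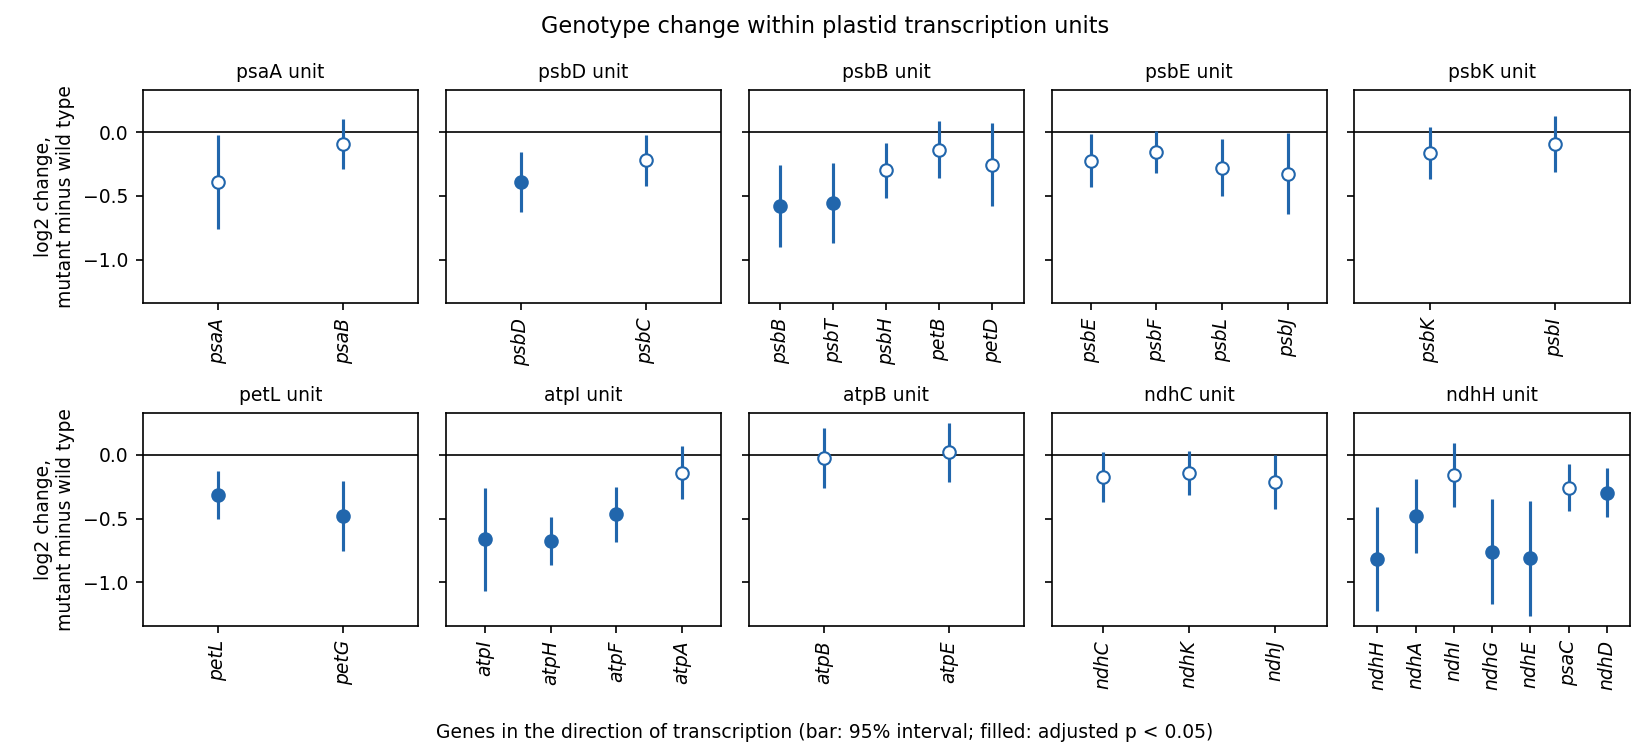
Fitted log2 change, double mutant minus wild type, for genes of 10 plastid transcription units in the direction of transcription, with 95% intervals. Filled points passed an adjusted p of 0.05. In the atpI unit the first 3 genes are filled and atpA, at −0.14, is not, and in the ndhH unit 5 of 7 genes are filled.

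Nuclear genes for the same complexes, their antennae and plastid RNA metabolism could be read for 12 of 77 genes on the list, all of which were tested. Of these, 1 was called lower (8.33%, against 5.55% of all tested probe sets) and 0 higher, with a median log2 change of −0.13. The estimate was negative for 10 of 12, and all mutant arrays lay below all wild-type arrays for 5 of 12 (PSBY, NdhL, NdhN, NdhS and LHCB4.3), against 15.7% of all tested probe sets. The call was LHCB4.3, a minor antenna protein of photosystem II, whose mean signal went from 576 ± 69.5 to 390 ± 40.3 (SD, n = 3), a 1.47-fold fall (95% interval 1.26 to 1.73, limma adjusted p = 0.00362). Without the variance trend its adjusted p was 0.0506 and the call ended. For the photosystem I subunit gene PSAE-1 the log2 change was −0.05 (95% interval −0.24 to 0.15), for the photosystem II gene PSBW −0.19 (−0.40 to 0.03), for the cytochrome b6f gene AT2G26500 −0.03 (−0.20 to 0.14) and for the ATP synthase gene ATPC1 0.03 (−0.15 to 0.21). The NDH gene NdhS had −0.24 (−0.43 to −0.04) and was not called. It passed the threshold when mutant replicate 1 was left out (−0.32, adjusted p = 0.0411), and its estimate was −0.15 when mutant replicate 3 was. These genes were mostly bright, with mean signals of at least 3263 in both genotypes for PSAE-1, PSBW, AT2G26500 and ATPC1. No gene for the Rubisco small subunit, sigma factors or plastid RNA processing on the list had a named probe set here.

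The rosette origin was read from the bright photosynthetic transcripts, with mean signals of LHCB4.1 of 6053 ± 491 (wild type) and 6132 ± 451 (mutant; SD, n = 3). No array read the root markers EXPA7 or EXPA18 above its 40th percentile. Pairs of arrays correlated at 0.974 to 0.986 within a genotype and 0.950 to 0.969 between genotypes over all tested probe sets.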

How the data were processed

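RNA of 6 rosette pools, 3 per genotype, was read on Affymetrix ATH1 arrays. The deposited values are linear intensities, 1 for every probe set on each array. MAS5 and GCOS are named in the submitters' processing notes with no version, and the deposited values were scaled by the authors, with a mean of 100.01 on every array after the top and bottom 2% of probe sets are left out. This scaling assumes equal total signal in both genotypes. Detection calls and a genome build are not given in the sources used here, so no coordinates are printed.

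Probe sets were named through the platform annotation and, by gene identifier, the TAIR10.1 gene table. For mitochondrial genes the identifiers did not match, so they were named by symbol. Signals were taken to log2 without an offset and without further normalization (array medians differed by 0.08, under the limit of 0.2). Of the probe sets other than 64 controls, 13848 reached their array's 40th percentile (16.9 to 19.4) on at least 3 of 6 arrays and entered a genotype model in limma 3.58.1 under R 4.3.3 (lmFit, then eBayes with trend). P-values were two-sided and adjusted by Benjamini-Hochberg over all tested probe sets, with a threshold of 0.05. Every adjusted p comes from this fit or its named alternative, folds were computed from fitted log2 changes, and 95% intervals are unadjusted. The fit was also run on simulated data, with noise drawn independently for each probe set. Such data hold no array shifts shared between genes, so they cannot show how reliable the calls of the members are.

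No set test was run: complexes are described by counts and medians. The number of arrays, 3 of each genotype, limits the precision. An exact permutation test of 3 against 3 cannot go under 0.1. The members, gene lists, transcription units and tests were chosen with earlier results of these data known. Genes given with values in every array were psbA, psaA, rbcL, all called members and, per complex, the brightest, the dimmest and the one with the largest change.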

Additional observations from a re-analysis of the deposited data

How the results depend on the processing

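No alternative called a member higher or turned the direction of a called member. The 16 called members (of 1571 called probe sets, 769 lower and 802 higher) became 2 (of 880, 373 and 507) without a variance trend and 4 (of 811, 345 and 466) at an adjusted p under 0.01. With 1 array left out they were 4 to 19 (of 1029 to 1585, 444 to 794 lower and 526 to 791 higher). With both wild-type replicate 1 and mutant replicate 2 left out, an alternative chosen after seeing the data, 3 members were called (of 1000, 447 lower and 553 higher), and the medians of photosystems I and II became −0.12 and −0.14. A stricter limit calls fewer by construction. Why fewer were called without a variance trend was not tested. A filter at the 60th percentile, which removes atpI, moved the ATP synthase median to −0.14. With 1 array left out the medians were −0.27 to −0.12 for photosystem I, −0.31 to −0.19 for photosystem II, −0.34 to −0.26 for cytochrome b6f, −0.38 to −0.24 for ATP synthase and −0.34 to −0.21 for NDH. The other planned settings gave 11 to 18 called members, with 11 lacking a filter on low signal, 13 with a robust prior, 14 with the 60th percentile or with arrays centred on probe sets outside the organelles, 16 with an offset of 16 and 17 after quantile normalization.

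With the replicate number as a block, 18 members were called, the 16 and also psbH and psbJ, among 1789 probe sets (906 lower, 883 higher). The labels do not say that a number marks a shared batch, and deviations of same-numbered arrays correlated at 0.08, 0.08 and 0.11 over all tested probe sets and at 0.26, 0.21 and 0.14 over the 42 members. Every array correlated best with its own number across genotypes, a hint from the data and not from the design.

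Intervals were wide for 3 arrays per genotype, such as −0.39 to 0.10 on the log2 scale for psbA.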

Other observations

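The probe set for ndhB, which names both copies of the gene and so was no member, had 23.8, 21.0 and 17.3 in the wild type and 10.6, 21.8 and 11.7 in the mutant, near the 40th percentile of the arrays. The genotypes overlapped and it was not called by limma (log2 change −0.56, 95% interval −1.29 to 0.17, adjusted p = 0.356).

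Among the other plastid transcripts the lowest estimates were those of rpoC2, for an RNA polymerase subunit, with a log2 change of −0.67 (limma adjusted p = 0.00468), and of the ribosomal protein gene rpl20 with −0.65 (adjusted p = 0.00153). They were named after their values were seen. The RNA polymerase gene rpoA had 0.01 (adjusted p = 0.951).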
